A study of Mus musculus with 45 samples.

Results

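The 38 genes described here are G2/M and mitosis genes, chosen by name from what their products are known to do and read as rows of the deposited expression table, in which all 38 were found among 23594 gene rows. They were followed in messenger RNA of 3 cell types sorted from the lungs of C57BL/6J mice. AM are the macrophages of the air spaces (alveolar), IM those of the lung tissue between them (interstitial), and iMo are monocytes labelled as inflammatory. Lipopolysaccharide (LPS), a bacterial product sensed through TLR4, was given intraperitoneally (ip), and cells were taken at 2, 6 and 20h; the 0h groups carry no treatment in the labels. The 27 libraries fell into 12 groups, with 4 libraries of AM at 0h, 3 at 6h and 2 each at 2h and 20h, and 2 libraries in each IM and iMo group. All groups share the wild-type strain, and the labels give no age and do not say whether the libraries of a group came from separate animals. P-values therefore measure the spread between these samples, which may be technical.

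A cell that enters mitosis makes cyclins A and B, which switch on the kinase CDK1. The aurora and polo kinases then drive spindle assembly, the kinetochore and the spindle checkpoint hold anaphase back until chromosomes are attached, and the anaphase promoting complex ends mitosis by marking cyclins and other proteins for degradation. Most of these genes are transcribed mainly in late S phase, G2 and mitosis through the MuvB complexes that bind the cell cycle homology region (CHR) of their promoters, so that their messenger RNA is widely used as a sign of dividing cells. Resident alveolar macrophages can renew themselves by division in the lung, while circulating monocytes are mostly regarded as having left the cell cycle.

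The promoters are shown because the members' levels moved together and these letters are the ones known for this class. A promoter in RefSeq's GRCm38.p6 table, 250 bases before to 50 after a start, was matched for 32 members; no entry was matched for Ccna2, Aurkb, Tpx2, Kif20a, Pbk and Cdc25c. Motifs were searched on both strands, and a base may belong to matches of more than 1 motif. A CHR (TTTGAA or TTCGAA) was present in 26 of the 32 (81.2%) and in 21.7% of the 27025 genes in the table. A CCAAT box (CCAAT) was present in 26 (81.2%) against 41.1% of genes, and both together in 23 (71.9%) against 8.61%. The core of the cell cycle dependent element (GGCGG) was found in 28 (87.5%) against 51.2%, and the E2F letters searched (TTTCCCGC, TTTGGCGC, TTTCGCGC or TTTGCCGC) in 1 (3.12%) against 2.6%. A match is a description of letters and not evidence of binding. The 150 bases before the start are printed 5′ to 3′ on the strand of the gene for 4 members that hold both, with the CHR and the CCAAT box, or their reverse complements, in capitals. They lie at chr4:118437344-118437493 (minus strand) for Cdc20, chr10:69352913-69353062 (minus strand) for Cdk1, chr2:164769779-164769928 (plus strand) for Ube2c and chr11:99024190-99024339 (minus strand) for Top2a.
Cdc20: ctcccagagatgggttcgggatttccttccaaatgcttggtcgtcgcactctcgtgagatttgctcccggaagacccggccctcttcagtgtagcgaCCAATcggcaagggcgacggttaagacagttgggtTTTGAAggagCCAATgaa
Cdk1: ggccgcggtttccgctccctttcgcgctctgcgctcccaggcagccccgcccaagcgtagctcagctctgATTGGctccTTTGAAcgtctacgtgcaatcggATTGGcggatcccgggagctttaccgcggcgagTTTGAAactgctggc
Ube2c: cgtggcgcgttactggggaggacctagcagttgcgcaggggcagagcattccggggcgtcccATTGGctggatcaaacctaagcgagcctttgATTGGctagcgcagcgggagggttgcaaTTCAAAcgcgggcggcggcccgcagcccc
Top2a: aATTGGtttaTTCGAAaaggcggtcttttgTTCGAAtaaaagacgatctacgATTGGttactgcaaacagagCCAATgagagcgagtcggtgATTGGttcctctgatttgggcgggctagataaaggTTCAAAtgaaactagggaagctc
In Cdc20 the first base of the CHR lies at -18, in Ube2c at -29, in Cdk1 at -71 and -15, and in Top2a the nearest lies at -23, counted from the start.

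Values are TPM, length-corrected transcript shares as the authors computed them, which divide by transcript length and keep no read depth, so no counting error can be given. Column sums ran from 331473 to 551635 TPM, 4068 to 7298 genes had at least 5 TPM, and the ribosomal RNA precursor Rn45s held 4.33 to 33.3% of a column. The titles carry 3 number codes, called a, b and c here. Every 0h library has code a except 1 of AM, which has code b, and the ip libraries have code b or c. For IM and iMo, time 0h and its title code therefore cannot be told apart, while all iMo libraries of 2, 6 and 20h carry code c. Only AM at 0h holds code a beside code b. A fit with title code as covariate therefore lends IM and iMo the difference between these codes seen in AM. Libraries labelled AM summed 4803 to 17730 TPM over 16 alveolar macrophage markers against 393.8 to 2230 in IM and iMo. IM at 0h held 6535 to 8040 TPM over 14 interstitial macrophage markers, and more, 11320 to 22740 TPM, over 10 mature neutrophil markers such as S100a8, so the IM libraries do not read as macrophages alone. One AM library of 20h stood apart, with 4007 TPM of interstitial markers against 239.3 in the other.

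Summed over the 38 members, the level in iMo was lowest at 0h and among the highest at 6 and 20h. The sums in iMo were 36.2 and 52.5 TPM at 0h, 60.7 and 65.4 at 2h, 326.5 and 296.2 at 6h, and 338.8 and 295.9 at 20h. In IM they were 72.4 and 88.1 TPM at 0h, 63.1 and 43.2 at 2h, 107.3 and 80.7 at 6h, and 171 and 249.3 at 20h. AM libraries held 179 to 277.7 TPM at 0h (233.3 ± 45.4, SD, n = 4), 189.2 and 408.1 at 2h, 199 to 244.7 at 6h, and 177.6 and 298.3 at 20h. Every AM library lay above every IM and iMo library of 0h and 2h, and the AM times overlapped one another. In bulk libraries a change in the share of dividing cells and a change in messenger RNA per cell cannot be told apart.

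**Figure D1:**
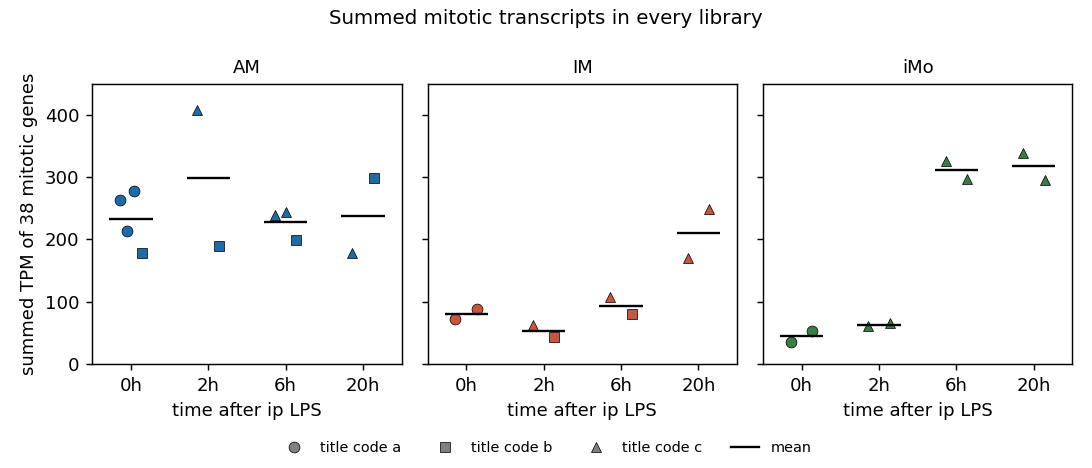
Summed TPM of the 38 mitotic genes in each of the 27 libraries (points; shape gives the title code) by cell type and time after ip LPS, with the group mean as a line. The 2 iMo libraries of 0h lie at 36.2 and 52.5 TPM and those of 20h at 338.8 and 295.9, while AM libraries of 0h lie between 179 and 277.7.

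The order of groups differed between members. The highest group mean was in iMo at 20h for 14 members, in iMo at 6h for 9, in AM at 2h for 8 and in AM at 0h for 3, and 1 member each was highest in AM at 6h, AM at 20h, IM at 0h and IM at 20h. In iMo at 0h, 27 members had a mean under 1 TPM and 2 (Pbk and Ttk, a mitotic kinase and a spindle checkpoint kinase) were listed at 0 in both libraries. At 20h no member had a mean under 1 TPM in iMo, and 22 had at least 5 TPM.

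**Figure D2:**
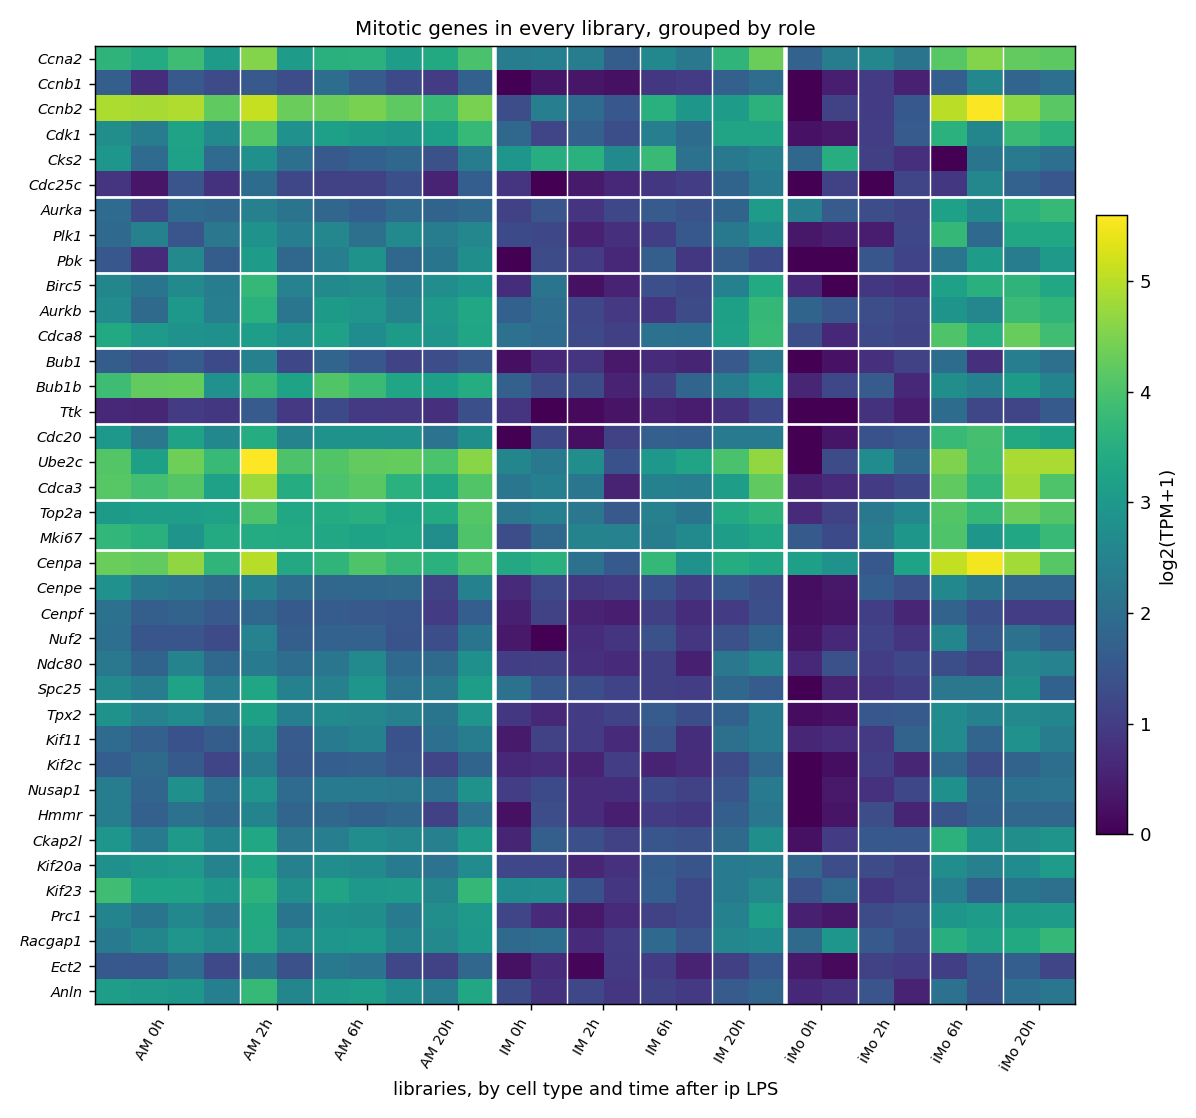
Level of each of the 38 members (rows, ordered by role) as log2(TPM+1) in each of the 27 libraries (columns, ordered by cell type and time after ip LPS). The iMo columns of 0h hold 27 of 38 members with a mean under 1 TPM, and Cks2 is a row that is bright in IM.

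The cyclins and CDK1 come first. Ccnb2 encodes a B-type cyclin that activates CDK1. Ccnb2 in AM stood at 28.7, 28.01, 29.2 and 17.7 TPM at 0h, 33.1 and 18.8 at 2h, 19.0, 21.0 and 17.5 at 6h, and 12.5 and 21.2 at 20h. Ccnb2 in IM was 1.49 and 4.21 TPM at 0h, 2.85 and 1.85 at 2h, 10.7 and 6.82 at 6h, and 7.47 and 11.03 at 20h. In iMo it was listed at 0 and 1.15 TPM at 0h, 0.963 and 1.90 at 2h, 31.4 and 46.4 at 6h, and 24.1 and 16.8 at 20h. Ccnb2 was thus high in AM throughout, and in iMo both libraries of 6h lay above both of 20h. Ccna2 encodes cyclin A2, which acts in S phase and at mitotic entry. Ccna2 in AM was 11.4, 9.92, 13.4 and 7.38 TPM at 0h, 22.6 and 7.41 at 2h, 10.7, 10.8 and 7.77 at 6h, and 9.57 and 14.8 at 20h. Ccna2 in IM was 4.07 and 4.36 TPM at 0h, 4.17 and 2.14 at 2h, 5.08 and 3.73 at 6h, and 11.6 and 19.1 at 20h. Ccna2 in iMo was 2.37 and 4.20 TPM at 0h, 5.04 and 3.45 at 2h, 16.6 and 22.6 at 6h, and 18.1 and 17.2 at 20h. Only the libraries of 6 and 20h in iMo, and of 20h in IM, stood clear of their own 0h.

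Cdk1 is the kinase that these cyclins activate. Cdk1 in AM was 5.74, 4.20, 8.34 and 5.38 TPM at 0h, 16.3 and 6.06 at 2h, 7.92, 7.32 and 6.81 at 6h, and 7.89 and 12.5 at 20h. Cdk1 in IM was 2.67 and 1.23 TPM at 0h, 2.30 and 1.53 at 2h, 4.24 and 2.92 at 6h, and 8.63 and 8.61 at 20h. Cdk1 in iMo was 0.215 and 0.310 TPM at 0h, 1.03 and 2.04 at 2h, 10.96 and 4.90 at 6h, and 13.1 and 11.04 at 20h. The iMo groups of 0, 2, 6 and 20h did not overlap one another, though the nearest libraries of 6h and 20h lay close, at 10.96 and 11.04 TPM. Cks2, which encodes a small subunit that binds CDK1, had another pattern. Cks2 in AM was 6.68, 2.89, 8.21 and 2.90 TPM at 0h, 6.03 and 3.13 at 2h, 1.95, 2.33 and 2.71 at 6h, and 1.60 and 4.17 at 20h. Cks2 in IM was 6.62 and 10.2 TPM at 0h, 10.9 and 5.39 at 2h, 12.7 and 3.22 at 6h, and 3.83 and 4.45 at 20h. Cks2 in iMo was 2.67 and 10.2 TPM at 0h, 1.07 and 0.703 at 2h, listed at 0 and 3.52 at 6h, and 3.96 and 3.11 at 20h. Its libraries differed several-fold in IM at 6h and in iMo at 0h, and its highest group mean was in IM at 0h.

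Among the kinases, Aurka encodes aurora A of the centrosome and spindle poles. Aurka in AM was 2.86, 1.27, 2.88 and 2.60 TPM at 0h, 4.38 and 3.46 at 2h, 2.60, 2.18 and 2.85 at 6h, and 2.47 and 2.75 at 20h. Aurka in IM was 1.16 and 1.79 TPM at 0h, 0.793 and 1.33 at 2h, 2.05 and 1.70 at 6h, and 2.46 and 7.42 at 20h. Aurka in iMo was 4.37 and 2.02 TPM at 0h, 1.50 and 1.23 at 2h, 8.16 and 5.25 at 6h, and 10.9 and 12.4 at 20h. Its iMo libraries of 20h lay above every AM library, and those of 0h overlapped AM. Plk1 encodes polo-like kinase 1, which acts in mitotic entry and spindle assembly. Plk1 in AM was 2.79, 4.53, 1.80 and 3.68 TPM at 0h, 6.19 and 4.21 at 2h, 5.00, 3.16 and 5.35 at 6h, and 4.21 and 5.01 at 20h. Plk1 in IM was 1.38 and 1.33 TPM at 0h, 0.425 and 0.694 at 2h, 1.07 and 1.91 at 6h, and 3.79 and 5.57 at 20h. Plk1 in iMo was 0.278 and 0.401 TPM at 0h, 0.335 and 1.32 at 2h, 12.3 and 2.76 at 6h, and 9.29 and 9.09 at 20h. The iMo libraries of 6h differed widely for Plk1 and those of 20h hardly at all.

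The chromosomal passenger complex, which corrects kinetochore attachments and acts in cytokinesis, was represented by Aurkb (its kinase), Birc5 (survivin) and Cdca8 (borealin). Aurkb in AM was 5.49, 2.80, 6.94 and 4.28 TPM at 0h, 10.9 and 3.59 at 2h, 7.28, 6.56 and 4.63 at 6h, and 7.11 and 9.11 at 20h. Aurkb in IM was 2.33 and 3.00 TPM at 0h, 1.27 and 0.894 at 2h, 0.857 and 1.42 at 6h, and 8.09 and 12.2 at 20h. Aurkb in iMo was 2.51 and 1.81 TPM at 0h, 1.51 and 1.24 at 2h, 6.48 and 4.97 at 6h, and 13.03 and 11.7 at 20h. In IM and iMo the libraries of 2h lay below those of 0h, and the 20h libraries above all others of the same cell type. Birc5 in AM was 4.95, 3.51, 5.31 and 4.13 TPM at 0h, 12.3 and 4.55 at 2h, 5.28, 5.799 and 3.96 at 6h, and 5.69 and 6.70 at 20h. Birc5 in IM was 0.669 and 3.44 TPM at 0h, 0.183 and 0.448 at 2h, 1.57 and 1.301 at 6h, and 4.51 and 9.67 at 20h. Birc5 in iMo was 0.539 TPM and listed at 0 at 0h, 0.864 and 0.710 at 2h, 8.16 and 10.7 at 6h, and 11.5 and 9.01 at 20h. For Birc5 the iMo libraries of 6 and 20h overlapped. Summed over the 3 genes, the iMo libraries held 2.35 and 4.57 TPM at 0h, and 34.45 and 43.1 at 20h.

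In the spindle checkpoint, Bub1b encodes BUBR1, which restrains the anaphase promoting complex. Bub1b in AM was 13.5, 17.9, 18.2 and 6.06 TPM at 0h, 12.8 and 8.41 at 2h, 15.8, 13.1 and 8.79 at 6h, and 7.87 and 10.0 at 20h. Bub1b in IM was 2.29 and 1.45 TPM at 0h, 1.45 and 0.479 at 2h, 1.104 and 2.56 at 6h, and 4.10 and 6.31 at 20h. Bub1b in iMo was 0.505 and 1.33 TPM at 0h, 2.02 and 0.531 at 2h, 5.79 and 4.499 at 6h, and 7.24 and 4.71 at 20h. It stayed below most AM libraries in every IM group. Cdc20 encodes the activator of the anaphase promoting complex that the checkpoint holds back. Cdc20 in AM was 6.92, 3.66, 8.30 and 5.07 TPM at 0h, 10.0 and 4.69 at 2h, 6.37, 6.33 and 6.08 at 6h, and 3.36 and 5.90 at 20h. Cdc20 in IM was listed at 0 and 1.32 TPM at 0h, 0.176 and 1.11 at 2h, 2.27 and 2.19 at 6h, and 3.97 and 3.90 at 20h. Cdc20 in iMo was listed at 0 and 0.249 TPM at 0h, 1.66 and 1.91 at 2h, 12.9 and 14.4 at 6h, and 9.49 and 8.07 at 20h. In iMo the groups did not overlap at any time, and 6h was highest, above every AM library.

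Ube2c encodes the ubiquitin conjugating enzyme that works with the anaphase promoting complex. Ube2c in AM was 16.1, 8.10, 19.6 and 12.8 TPM at 0h, 47.2 and 15.3 at 2h, 15.7, 17.9 and 18.4 at 6h, and 15.1 and 23.1 at 20h. Ube2c in IM was 4.94 and 3.81 TPM at 0h, 5.74 and 1.66 at 2h, 6.90 and 8.65 at 6h, and 14.8 and 24.9 at 20h. Ube2c in iMo was listed at 0 and 1.44 TPM at 0h, 5.59 and 2.62 at 2h, 21.9 and 13.8 at 6h, and 28.6 and 28.7 at 20h. Each later iMo group lay above the one before it without overlap. The single highest value of Ube2c was in 1 AM library of 2h, which also held the highest summed level.

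Top2a encodes topoisomerase II alpha, which untangles sister chromatids, and Mki67 encodes the Ki-67 protein that coats mitotic chromosomes. Top2a in AM was 7.31, 7.70, 7.75 and 8.19 TPM at 0h, 15.5 and 9.25 at 2h, 9.86, 10.5 and 8.52 at 6h, and 9.71 and 16.4 at 20h. Top2a in IM was 3.67 and 4.30 TPM at 0h, 3.67 and 1.94 at 2h, 4.40 and 3.51 at 6h, and 9.67 and 11.2 at 20h. Top2a in iMo was 0.592 and 1.11 TPM at 0h, 3.70 and 5.05 at 2h, 16.0 and 12.3 at 6h, and 18.8 and 16.0 at 20h. Its replicates lay close together in most groups. Mki67 in AM was 12.1, 10.7, 6.47 and 9.61 TPM at 0h, 9.85 and 9.74 at 2h, 9.19, 8.45 and 8.91 at 6h, and 5.77 and 15.6 at 20h. Mki67 in IM was 1.51 and 2.62 TPM at 0h, 4.68 and 4.56 at 2h, 4.17 and 5.29 at 6h, and 7.64 and 8.77 at 20h. Mki67 in iMo was 2.01 and 1.40 TPM at 0h, 4.10 and 6.79 at 2h, 15.7 and 6.82 at 6h, and 9.13 and 12.7 at 20h. Mki67, Tpx2 and Nuf2 were the 3 members for which both IM libraries of 2h lay above both of 0h.

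Of the spindle and cytokinesis genes, Kif11 encodes the motor that pushes spindle poles apart and Prc1 a protein that bundles the central spindle. Kif11 in AM was 2.88, 2.29, 1.65 and 2.13 TPM at 0h, 5.81 and 2.05 at 2h, 3.92, 4.46 and 1.65 at 6h, and 3.13 and 4.19 at 20h. Kif11 in IM was 0.317 and 1.1 TPM at 0h, 0.975 and 0.592 at 2h, 1.68 and 0.671 at 6h, and 3.21 and 3.84 at 20h. Kif11 in iMo was 0.511 and 0.644 TPM at 0h, 0.922 and 2.42 at 2h, 5.46 and 2.53 at 6h, and 6.07 and 4.17 at 20h. Kif11 was among the lowest of the members tested. Prc1 in AM was 4.76, 3.48, 5.08 and 3.73 TPM at 0h, 9.56 and 3.51 at 2h, 5.98, 5.86 and 3.87 at 6h, and 5.79 and 7.02 at 20h. Prc1 in IM was 1.26 and 0.584 TPM at 0h, 0.311 and 0.581 at 2h, 1.11 and 1.36 at 6h, and 4.53 and 7.64 at 20h. Prc1 in iMo was 0.407 and 0.293 TPM at 0h, 1.47 and 1.61 at 2h, 6.73 and 7.47 at 6h, and 7.25 and 7.37 at 20h. The iMo libraries of 6h and 20h overlapped for Prc1 and lay close together.

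**Figure D3:**
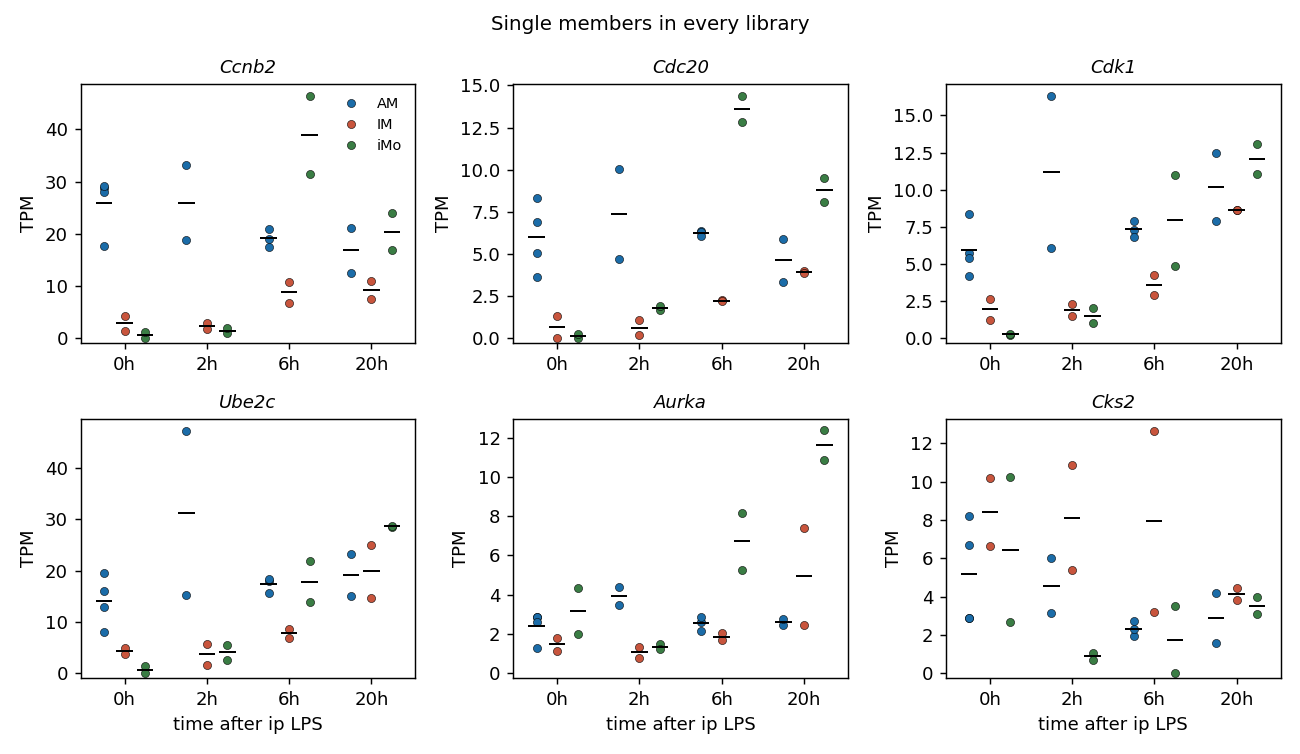
TPM of 6 members in each library (points) by time after ip LPS, coloured by cell type (AM blue, IM red, iMo green), with group means as lines. Ccnb2 and Cdc20 are highest in iMo at 6h, Ube2c and Aurka are higher at 20h than at 6h in both iMo libraries, and the Cks2 libraries lie far apart in IM at 6h and in iMo at 0h.

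The remaining members are given by the same roles. Cdca3, a trigger of mitotic entry, stood at 0.414 and 0.597 TPM in iMo at 0h, 0.996 and 1.31 at 2h, 17.7 and 11.9 at 6h, and 26.7 and 15.5 at 20h. Cdca8 in iMo was 1.52 and 0.547 TPM at 0h, 1.37 and 1.20 at 2h, 15.7 and 10.5 at 6h, and 18.6 and 13.7 at 20h. Cenpa, the histone H3 variant of centromeres, stood in iMo at 7.93 and 6.28 TPM at 0h, 1.91 and 8.46 at 2h, 32.8 and 43.99 at 6h, and 27.3 and 16.6 at 20h. Of the centromere and kinetochore genes it made up most of the summed level in iMo at 0, 6 and 20h, and like Ccnb2 it was higher in both iMo libraries of 6h than in both of 20h. Cenpe, a kinetochore motor, had the same order, with 0.158 and 0.284 TPM at 0h, 2.18 and 1.62 at 2h, 5.11 and 3.52 at 6h, and 2.58 and 2.58 at 20h in iMo. Ndc80, which binds microtubules at the kinetochore, had another, with 0.562 and 1.62 TPM at 0h, 1.01 and 1.33 at 2h, 1.55 and 1.11 at 6h, and 5.00 and 4.59 at 20h. Kif23 in IM was 5.59 and 5.69 TPM at 0h, 1.65 and 0.835 at 2h, 2.17 and 1.34 at 6h, and 3.88 and 5.19 at 20h. Neither of its IM libraries of 20h reached those of 0h. Racgap1, the partner of Kif23 in centralspindlin, stood in iMo at 2.82 and 6.67 TPM at 0h, 1.94 and 1.43 at 2h, 10.5 and 8.38 at 6h, and 9.56 and 12.2 at 20h. Its libraries of 0h differed by more than those of any later time in iMo as a ratio.

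Of the members too low to test, Ccnb1, the other B-type cyclin, was listed at 0 and 0.383 TPM in iMo at 0h, and stood at 2.20 and 5.00 at 6h and 2.56 and 3.10 at 20h. In AM at 0h it was 0.649 to 2.22 TPM. Cenpf, a kinetochore protein, was 0.166 and 0.239 TPM in iMo at 0h, 2.43 and 1.59 at 6h and 1.02 and 1.03 at 20h, and 1.94 to 3.32 in AM at 0h. Bub1, a checkpoint kinase, was listed at 0 and 0.205 TPM in iMo at 0h and stood at 4.22 and 3.15 at 20h. The lowest group mean was in iMo at 0h for Cenpf and Bub1 and in IM at 0h for Ccnb1. These values carry no test.

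By role, the summed level of every group of genes was higher in both iMo libraries of 20h than in both of 0h. The 3 genes of the anaphase promoting complex and mitotic ubiquitination held 0.414 and 2.28 TPM in iMo at 0h and 52.2 and 64.8 at 20h, against 25.9 to 43.97 in AM at 0h. The 6 spindle motors and microtubule binding genes held 0.848 and 2.52 TPM at 0h and 24.5 and 25.4 at 20h. The 6 cyclins, CDK1 and regulators held 5.25 and 17.4 TPM at 0h, 62.0 and 87.5 at 6h, and 53.1 and 64.2 at 20h. The 6 central spindle and cytokinesis genes held 8.31 and 12.02 TPM at 0h and 31.2 and 35.0 at 20h. In IM the centromere and kinetochore genes stood at 15.0 and 16.1 TPM at 0h and 20.7 and 21.5 at 20h, and the passenger complex at 6.30 and 9.34 at 0h and 20.8 and 34.7 at 20h.

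Tests were run on log2(TPM+1) with limma over all 8937 genes that had at least 5 TPM in at least 2 libraries, and a gene was called at an adjusted p under 0.05. Of the 38 members, 29 passed this filter. The 9 that did not (Ccnb1, Cdc25c, Bub1, Ttk, Cenpf, Nuf2, Kif2c, Hmmr and Ect2) reached at most 2.93 (Ttk) to 5.04 TPM (Cdc25c) and are in no count of calls. A member that passed through 1 group where it is high had to differ from the others, so the counts below describe the members and are read beside the share of all genes called. Counts under other settings (title code, block, scaling or a library left out) come without that share. They cannot be read as particular to the members. Where libraries did not overlap, members are counted over all 38, the 9 not tested included, while the share of all genes is over the 8937 tested. Differences are of mean log2(TPM+1) with their standard error (SE), which understate changes of low genes, and the median over all genes tested is given for each comparison since it moves with the scaling.

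At 0h most members tested were lower in IM and iMo than in AM. In IM, 19 of the 29 tested were lower and 0 higher, where 11% of all genes were called lower. Ccnb2 was lower by the most (-2.87, SE 0.37, adjusted p = 1.68e-06), followed by Bub1b (-2.29, SE 0.39, adjusted p = 6.76e-05), Cdc20 (-2.15, SE 0.35, adjusted p = 3.35e-05), Anln, the anillin scaffold of the cleavage furrow (-1.84, SE 0.35, adjusted p = 0.000229), and Mki67 (-1.80, SE 0.34, adjusted p = 0.000216). The median over the 29 was -1.11, and 0.00 over all genes. For 32 of the 38 members both IM libraries lay below all 4 of AM, as did 18% of all genes tested. Without 1 IM library (letter A) 10 were lower.

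In iMo at 0h, 25 of 29 were lower than in AM and 0 higher, against 13.4% of all genes called lower. Ccnb2 differed by -4.17 (SE 0.37, adjusted p = 4.43e-09), Cdca3 by -3.25 (SE 0.43, adjusted p = 1.72e-06) and Ube2c by -3.22 (SE 0.45, adjusted p = 3.54e-06). Bub1b differed by -2.89 (SE 0.39, adjusted p = 2.87e-06) and Cdc20 by -2.60 (SE 0.35, adjusted p = 2.4e-06). Over the 29 the median was -2.0 and over all genes 0.15. In 34 of 38 members both iMo libraries lay below all AM libraries, and 19.2% of all genes did so. The 4 members tested and not called were Aurka (0.28), Aurkb, Cks2 (0.17) and Racgap1.

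Between iMo and IM at 0h, 5 of 29 were lower in iMo and 0 higher, where 6.32% of all genes were called lower. These were Ube2c (-1.78, SE 0.51, adjusted p = 0.033), Cdca3 (-1.72, SE 0.49, adjusted p = 0.0306), Spc25, a subunit of the NDC80 kinetochore complex (-1.54, SE 0.41, adjusted p = 0.0181), Top2a (-1.44, SE 0.32, adjusted p = 0.00353) and Cdca8 (-1.05, SE 0.32, adjusted p = 0.0488). The count is not stable: 3 or 2 were called without the A or B library of IM, 1 without the A library of iMo, 10 were called after rescaling without Rn45s and Lars2, and with quantile normalization 2 were higher and 2 lower.

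In AM no member was called at any time after ip LPS. Against 0h, 0 of 29 passed at 2h (0.134% of all genes were called), 0 at 6h (1.3%) and 0 at 20h (0.112%). By unadjusted p under 0.05 the numbers were 2, 0 and 1, and 0 of 29 passed between 20h and 2h (0.0224% of all genes, 0 by unadjusted p). AM had few calls over all genes, and the AM libraries of 2h and 20h differed among themselves. Without the AM library of 20h that stood apart, 0 were called at 20h. The libraries of AM with code b alone held 179 TPM at 0h, 189.2 at 2h, 199 at 6h, then 298.3 at 20h, 1 library each and so with no replicates.

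In iMo most members tested were higher at 6h and at 20h than at 0h. At 2h, 7 of 29 were higher than at 0h (8.41% of all genes were called higher) and 2 lower (24% called lower). Those that rose were Ube2c (1.65, SE 0.51, adjusted p = 0.017), Top2a (1.54, SE 0.32, adjusted p = 0.000821), Tpx2, which nucleates spindle microtubules and activates aurora A (1.33, SE 0.33, adjusted p = 0.0035), Cdc20 (1.32, SE 0.40, adjusted p = 0.015), Mki67, Cenpe and Prc1. Cks2 fell (-1.77, SE 0.63, adjusted p = 0.0326), as did Racgap1. Their median over the 29 was 0.53 and over all genes -0.42. With quantile normalization 9 were higher and 0 lower, after rescaling without Rn45s and Lars2 14 and 0, while a fit with title code as covariate called 0. Leaving out any 1 of the 4 libraries left 4 or 5 called.

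At 6h, 24 of 29 were higher in iMo than at 0h and 0 lower, where 5.95% of all genes were called higher. Ccnb2 rose by 4.74 (SE 0.43, adjusted p = 1.02e-07), Cdc20 by 3.71 (SE 0.40, adjusted p = 1.2e-06), Ube2c by 3.56 (SE 0.51, adjusted p = 2.97e-05), Cdca3 by 3.37 (SE 0.49, adjusted p = 3.39e-05) and Birc5 by 3.06 (SE 0.43, adjusted p = 2e-05). The 5 not called were Aurka, Kif23, Cks2, Ndc80 and Anln. The median over the 29 was 2.27 and over all genes -0.48, and for 34 of 38 members both libraries lay above both of 0h (16.2% of all genes did). With title code as covariate 15 of 29 were higher, and with a block for each title letter and code fewer were called.

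At 20h, 27 of 29 were higher in iMo than at 0h and 0 lower, against 7.39% of all genes called higher. Ube2c rose by 4.25 (SE 0.51, adjusted p = 5.37e-06), Ccnb2 by 3.85 (SE 0.43, adjusted p = 2.26e-06), Cdca3 by 3.83 (SE 0.49, adjusted p = 1.13e-05), Cdk1 by 3.37 (SE 0.41, adjusted p = 5.37e-06) and Top2a by 3.32 (SE 0.32, adjusted p = 4.01e-07). The 2 not called were Kif23 (0.46, SE 0.39, adjusted p = 0.413), a motor of the central spindle, and Cks2 (-0.51, SE 0.63, adjusted p = 0.594). In 37 of 38 members both libraries of 20h lay above both of 0h, as did 23.3% of all genes tested, and the median over the 29 was 2.13 (all genes -0.31). The 0h libraries carry another title code: with that code as a covariate 14 of 29 were higher. This adjustment is borrowed from other cell types, as no iMo group mixes codes. A block for each title letter and code left fewer called. The comparisons at 2, 6 and 20h share the 0h libraries.

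Within code c, where the time and the code are separate, 25 of 29 were higher in iMo at 20h than at 2h and 0 lower, where 14.7% of all genes were called higher. Cdca3 differed by 3.31 (SE 0.49, adjusted p = 3.12e-05), Ccnb2 by 3.15 (SE 0.43, adjusted p = 1.15e-05), Cdca8 by 2.90 (SE 0.32, adjusted p = 1.22e-06), Birc5 by 2.65 (SE 0.43, adjusted p = 7.74e-05) and Ube2c by 2.60 (SE 0.51, adjusted p = 0.000674). Both libraries of 20h lay above both of 2h in 37 of 38 members (37.5% of all genes). Over the 29 the median was 1.72 and over all genes 0.14, and without 1 library of 20h (letter A) 16 were called.

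**Figure D4:**
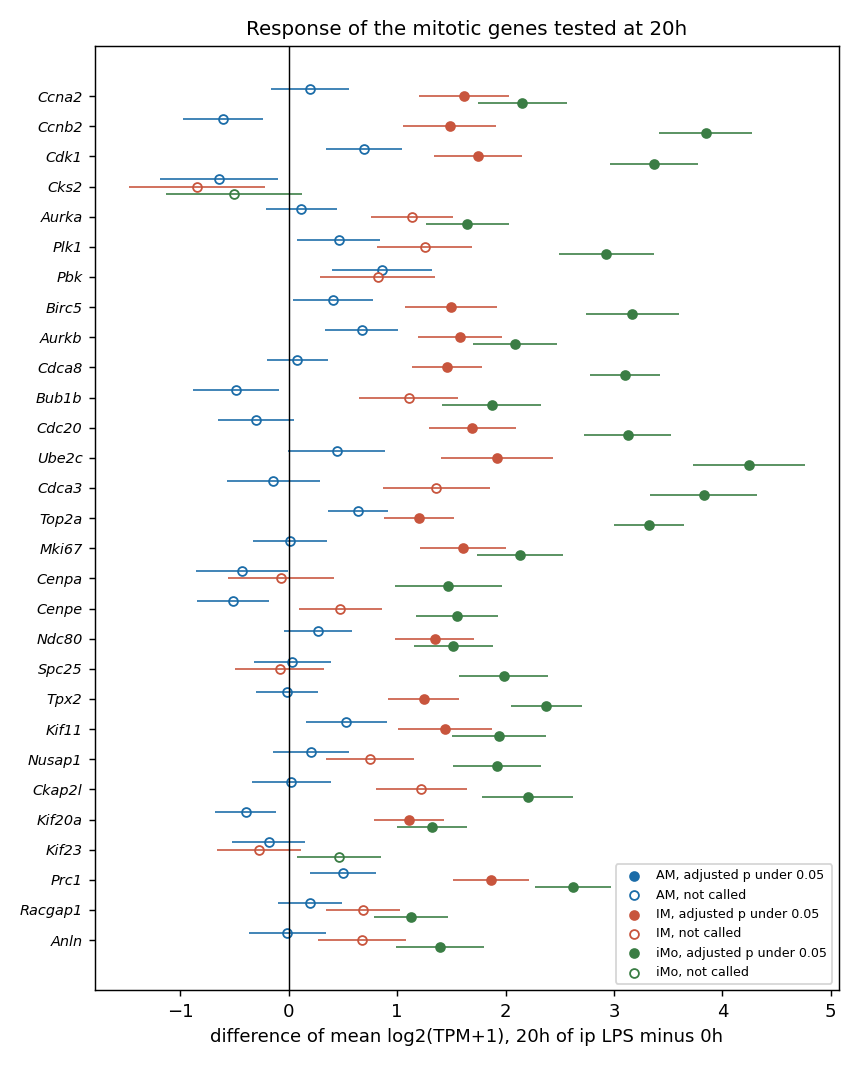
Difference of mean log2(TPM+1) between 20h of ip LPS and 0h (x axis, bars are 1 SE) for the 29 members tested, by cell type; filled points have an adjusted p under 0.05. In iMo 27 are called, in IM 15 and in AM 0; Pbk, 1 of the 27, has no iMo point because it is listed at 0 in both iMo libraries of 0h.

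In IM more members were called higher at 20h than at 2h or 6h. At 2h, 5 of 29 were lower than at 0h and 0 higher, where 40.8% of all genes were called lower. Cenpa fell by 1.63 on the log2 scale (SE 0.49, adjusted p = 0.0092), Kif23 by 1.59 (SE 0.39, adjusted p = 0.00194), Racgap1 by 1.12 (SE 0.34, adjusted p = 0.00965), Birc5 by 1.06 (SE 0.43, adjusted p = 0.0436) and Cdca8 by 0.89 (SE 0.32, adjusted p = 0.0265). The median over the 29 was -0.37 and over all genes -0.79, and with quantile normalization the direction turned, with 8 higher and 0 lower. There was 1 call without the B library of 0h and 2 without the code b library of 2h. At 6h Ccnb2 rose by 1.41 (SE 0.43, adjusted p = 0.0191) and Kif23 fell by 1.29 on the log2 scale (SE 0.39, adjusted p = 0.0186). Leaving out 1 library of 0h (letter A) left 0 called, and leaving out either library of 6h left 1. These 2 of 29 stood beside 25.5% of all genes called in either direction, a median over the 29 of 0.06 and over all genes of -0.53, and with quantile normalization 11 were higher and 0 lower. With title code as covariate 0 were called at 2h and 0 at 6h.

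At 20h, 15 of 29 were higher in IM than at 0h and 0 lower, where 4.05% of all genes were called higher. Ube2c rose by 1.92 (SE 0.51, adjusted p = 0.0128), Prc1 by 1.87 (SE 0.35, adjusted p = 0.000578), Cdk1 by 1.75 (SE 0.41, adjusted p = 0.00423), Cdc20 by 1.69 (SE 0.40, adjusted p = 0.00522) and Ccna2 by 1.61 (SE 0.41, adjusted p = 0.00942). The median over the 29 was 1.25 (all genes -0.09), and in 31 of 38 members both libraries lay above both of 0h (27.7% of all genes). This count rests on single libraries: it was 4 without 1 library of 0h (letter A) and 3 without 1 of 20h (letter B). With title code as covariate 0 were called.

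Against 2h, 23 of 29 were higher in IM at 20h and 0 lower, beside 31.8% of all genes called higher. Birc5 differed by 2.55 (SE 0.43, adjusted p = 0.000115), Aurkb by 2.40 (SE 0.39, adjusted p = 8.57e-05), Cdca8 by 2.35 (SE 0.32, adjusted p = 1.62e-05), Cdca3 by 2.31 (SE 0.49, adjusted p = 0.00104) and Prc1 by 2.26 (SE 0.35, adjusted p = 5.26e-05). A median of 1.61 was found over the 29, where that of all genes was 0.65. The libraries of 20h lay above those of 2h in 37 of 38 members, and in 55.4% of all genes. Quantile normalization left 14 called. Leaving out 1 library of 2h (code b) or 1 of 20h (letter B) also left 14.

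At 20h few members differed between the cell types. Between IM and AM 0 of 29 were called (18.5% of all genes were called), with a smallest adjusted p of 0.0502 and 2 at an unadjusted p under 0.05. Between iMo and AM 2 of 29 were higher in iMo and 0 lower, where 8.92% of all genes were called higher. These were Aurka (1.81, SE 0.38, adjusted p = 0.00134) and Cdca8 (0.98, SE 0.32, adjusted p = 0.0374). Between iMo and IM 0 of 29 were called (1.25% of all genes), with 7 at an unadjusted p under 0.05 and a median over the 29 of 0.52. There was 1 call between iMo and IM without the B library of IM, and 1 between iMo and AM without the code b library of AM or either library of iMo. A count of 0 does not show that the levels were equal. Without the AM library of 20h that stood apart, 1 was called lower in IM than in AM, and 1 higher and 1 lower in iMo than in AM. With quantile normalization 4 were lower in IM than in AM, and 1 higher and 2 lower in iMo than in AM.

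The course after LPS differed between the cell types. In the moderated F test of the differences of the responses at 2, 6 and 20h between cell types, 23 of 29 members were called, beside 25.1% of all genes. The smallest adjusted p were those of Ccnb2 (1.17e-05), Cdca8 (6.63e-05), Top2a (0.000182), Cdc20 (0.000267) and Birc5 (0.000443). The 6 tested and not called were Cks2, Kif11, Kif23, Ndc80, Anln and Pbk. With title code as covariate 23 were called.

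The members varied together over the 27 libraries, which share cell types, times and title codes. The Pearson r of log2(TPM+1) of each member with the mean of the others had a median of 0.874 and was at least 0.9 for 16, and the highest was that of Cdca3 (0.959). Cks2 lay apart at -0.227, and the next lowest were Aurka (0.597), Cdc25c (0.616), Kif23 (0.692) and Cenpa (0.765). Outside the members, the 10 genes with the highest r to the members' mean, with Gm, Rik, Mir, Snor and LOC models passed over, were Knstrn (0.951), Cks1b (0.939), Rrm2 (0.925), Smc2 (0.913), Ncapg (0.904), Trip13 (0.904), Asf1b (0.897), Rrm1 (0.895), Ncapd2 (0.889) and Myc (0.887). Knstrn encodes a kinetochore protein, Rrm1 and Rrm2 the subunits of ribonucleotide reductase, and Smc2, Ncapg and Ncapd2 subunits of condensin. These values are descriptions over the same libraries.

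Genes of G1/S and DNA replication act before mitosis. Over 36 such genes the summed level in iMo was 108.9 to 120 TPM at 0h, 78.1 to 83.2 at 2h, 148 to 167.4 at 6h, then 491.2 to 614.1 at 20h, while the mitotic sum at 6h (296.2 to 326.5 TPM) already overlapped that of 20h. Against 0h, 9 of the 29 replication genes tested were higher at 6h and 0 lower, where 5.95% of all genes were called higher, and 26 were higher at 20h and 0 lower, where 7.39% were. The largest changes were those of Rrm2 (2.83) and Rrm1 (1.63) at 6h, and of Rrm2 (4.16) and Mcm2, a subunit of the replicative helicase (3.82), at 20h. From 2h to 20h 27 of 29 rose (14.7% of all genes did), led by Mcm6 (3.59) and Mcm5 (3.45). Both sets are compared with the same 0h libraries, and whether their time courses differ was not tested. In IM the replication genes stood at 130 to 152 TPM at 0h, 52.7 to 67.5 at 2h, 70.0 to 82.2 at 6h and 292.2 to 379.6 at 20h, where 15 of 29 were higher than at 0h (4.05% of all genes). In AM 2 of 29 rose at 6h (Ung and Mcm5, by 1.60 and 1.44), beside 0.929% of all genes called higher.

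**Figure D5:**
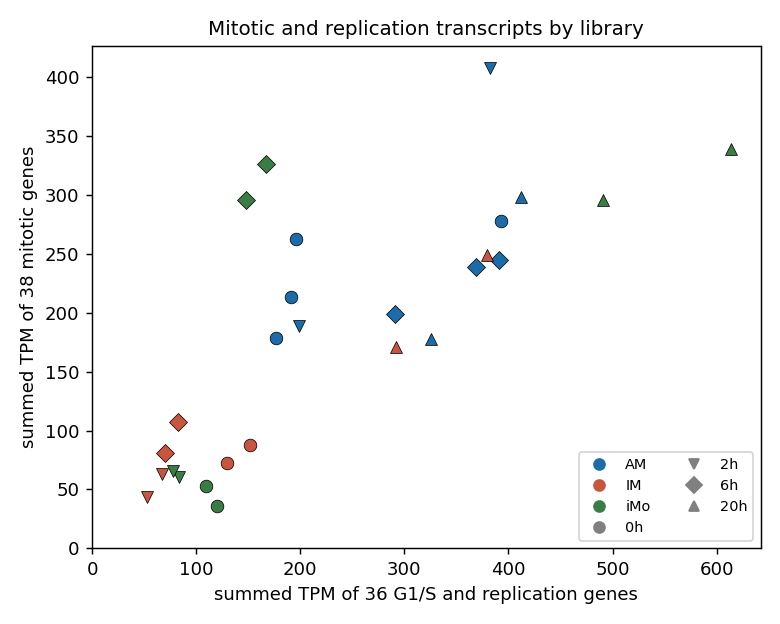
Summed TPM of the 38 mitotic genes (y axis) against summed TPM of 36 G1/S and replication genes (x axis) in each of the 27 libraries, coloured by cell type, with shapes for the time after ip LPS. The iMo libraries of 6h have mitotic sums of 296.2 and 326.5 TPM at replication sums of 148 and 167.4, and the iMo libraries of 20h lie at 491.2 and 614.1 on the x axis.

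The other lists of the pathway held called genes in both directions, in a comparison where 7.39% of all genes were called higher and 14.8% lower. Of 30 further mitotic and chromosome segregation genes tested, 18 were higher and 1 lower in iMo at 20h than at 0h, with Spc24, a kinetochore subunit, at 3.84 and Cks1b, the paralogue of Cks2, at 3.26. Pttg1, which encodes securin, was the 1 that fell (-1.49). Of 13 cohesin and condensin genes tested, 4 rose and 1 fell, led by Ncapd2 (2.69) and Smc2 (2.11), with the cohesin loader Nipbl at -1.65. Of 17 genes of the anaphase promoting complex list 2 rose (Fbxo5 by 1.43 and Anapc5 by 1.04) and 1 fell (Anapc13, -2.57). Of 15 genes in the list of E2F, RB and MuvB regulators, which also holds Myc, 2 rose, Myc by 2.97 and E2f1 by 2.32, and 1 fell, E2f2 (-1.40). The list of D-type cyclins, their kinases and CDK inhibitors also holds other regulators such as Pkmyt1, Btg1 and Gadd45a. Of its 17 genes 6 rose, among them Ccnd2 (3.62) and Pkmyt1 (3.29), and 5 fell, among them Btg1 (-3.07) and Gadd45a (-2.01). The medians of these 5 lists were 1.82, 0.06, 0.30, -0.06 and -0.05, beside -0.31 over all genes. The counts of the anaphase promoting complex and E2F lists lie near or under the shares of all genes called, and nothing is read from them.

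Markers of other cells also changed over these times, not all in the same direction as the mitotic genes. In iMo the 10 mature neutrophil markers summed 142.9 to 250.3 TPM at 0h, 339.2 to 595.5 at 2h, 1468 to 2748 at 6h, then 2751 to 2825 at 20h, and 7 of 10 were called higher and 1 lower at 20h, where 7.39% of all genes were called higher and 14.8% lower. S100a8 and S100a9 held most of the sums of 6 and 20h. S100a8 stood at 1572 and 781.3 TPM at 6h and 1369 and 1447 at 20h, and S100a9 at 969.2 and 512.4, then 1121 and 1196. The 12 immature neutrophil and granulocyte precursor markers summed 989.5 to 1046 TPM at 0h, 4983 to 7148 at 6h and 1518 to 2025 at 20h. Single genes carried most of these precursor sums. Chil3, also listed for alveolar macrophages and classical monocytes, held 912.2 and 984.1 TPM at 0h, and Lcn2 held 5743 and 3958 at 6h. Of the 12 markers, 5 of 9 tested were called higher at 6h (5.95% of all genes), among them Lcn2 (7.62). Ngp was listed at 0 in both libraries of 0h and at 228 and 229.7 TPM at 6h, while Prtn3 was 40.1 and 30.3 at 0h and 44.7 and 33.4 at 6h. Elane, which encodes neutrophil elastase, was 0.671 and 0.484 TPM at 0h and 25.0 and 41.9 at 6h in iMo, and Mpo, myeloperoxidase, 0.242 and 1.05 at 0h and 3.00 and 2.40 at 6h. Classical monocyte markers summed 10020 to 14350 TPM at 0h, 6655 to 9434 at 6h and 3027 to 3917 at 20h, when 7 of 10 were lower. Of the 14 interstitial macrophage markers, 5 were higher and 1 lower (Cx3cr1, -2.17) in iMo at 20h, with a median of 0.33. Among them C1qa, a complement gene, was called higher (6.20) and stood at 2.85 and 2.05 TPM at 0h, 7.84 and 1.69 at 6h, and 248.7 and 252.3 at 20h, while Apoe, which encodes a lipid transport protein, was 1200 and 1200 TPM at 0h and 152.9 and 169.9 at 20h, with no call. Of the 9 haematopoietic progenitor markers, Spi1, a transcription factor gene that macrophages and monocytes also express, held nearly all of the summed level. The other 8 summed 8.15 to 8.27 TPM in iMo at 0h, 3.38 to 6.44 at 6h and 3.81 to 3.98 at 20h. At 20h 0 of the 5 progenitor markers tested were called in iMo, and Kit was at most 0.491 TPM in iMo at 6h and 0.139 at 20h. The part of these cells or changes in the mitotic levels was not tested.

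In IM the mature neutrophil markers summed 11320 to 22740 TPM at 0h, 19200 to 22460 at 2h, 16940 to 56750 at 6h, then 28140 to 34690 at 20h, and 3 of 10 were called higher at 20h (4.05% of all genes). S100a8 and S100a9 held most of these sums too, with S100a8 at 13240 and 16910 TPM and S100a9 at 12590 and 16040 at 20h. The precursor markers summed 510.2 to 636.1 TPM at 0h, 7796 to 14860 at 2h, 9655 to 23060 at 6h and 6232 to 6376 at 20h, with Elane at 0.481 and 4.20 TPM, Mpo listed at 0 and at 0.606, and Ngp at 555.9 and 566.3 at 20h. Most of these sums lay in Chil3 at 0h (269.1 and 533.5 TPM) and in Lcn2 later. Lcn2 held 13030 and 6606 TPM at 2h, 20600 and 6916 at 6h, and 4840 and 4967 at 20h. Interstitial markers summed 568 to 1436 TPM at 2h, 672 to 689.8 at 6h and 2384 to 2485 at 20h, when 7 of 14 were lower than at 0h, led by Pf4 (-5.92) and Lyve1 (-5.88), where 8.39% of all genes were called lower. The 8 progenitor markers other than Spi1 summed 29.5 to 39.2 TPM in IM at 0h and 1.59 to 3.37 at 20h, and 4 of the 5 progenitor markers tested were lower and 0 higher, led by Gata2 (-3.09) and Sox4 (-2.63). Spi1 itself was 494.7 and 477.7 TPM at 0h and 692.9 and 662.5 at 20h. Endothelial markers stood at 536.1 to 719.9 TPM in IM at 0h and 23.2 to 42.5 at 20h, lung epithelial markers at 352.5 to 729.2 and 27 to 38.9, lymphocyte markers at 126.3 to 144.5 and 12.9 to 26.5. Erythroid markers stood at 34.8 to 332.7 and 6.56 to 8.15 TPM, dendritic cell markers at 38.8 to 66.7 and 4.69 to 7.33, and fibroblast markers at 15.8 to 24.9 and 0.392 to 2.81. The part of any of these in the mitotic levels of IM was not tested. In iMo at 0h and 20h the sums were 8.25 to 52.1 and 18.8 to 34.6 TPM for endothelial, 132.1 to 173.1 and 12.9 to 29.2 for lung epithelial, and 37.6 to 55.1 and 49.2 to 75.3 for lymphocyte markers. They were 32.3 to 74.2 and 0 to 22.5 TPM for erythroid, 27.1 to 69.5 and 1.81 to 2.06 for dendritic cell, and 0.467 to 0.997 and 0.139 to 0.519 for fibroblast markers. At 6h the lymphocyte markers in iMo summed 47.6 to 131.3 TPM. The part of any of these in the mitotic levels of iMo was not tested.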

How the data were processed

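Messenger RNA of sorted cells was copied and sequenced with a poly(A) method, per the labels' protocols. The authors deposited 1 table of TPM (length-corrected transcript shares of a library) per gene. STAR, HOMER and mm10 are named in the submitters' processing notes, with no version; which annotation was used is not given in the sources used here. The time labelled 20h is 22h in the series text. The 18 columns of intranasal libraries were not used, since their rows did not match the genes of the others (r 0.0097 to 0.025 with the 0h and ip libraries, 0.757 to 0.989 among those 27). TPM keep no read depth.

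Groups were taken from the titles. TPM were taken to log2(TPM+1), 8937 of 23594 genes passed a filter of 5 TPM or more in 2 or more of the 27 libraries, and all 12 groups were fitted together in limma 3.58.1 (R 4.3.3) with moderated tests and Benjamini-Hochberg adjustment over all genes tested. The procedure was tested on simulated data. Fold changes are given for the 5 members with the largest change among those called in each comparison, levels for 1 or more members per role, and for the other pathway lists the 2 largest called changes in each direction. Levels of the other members and of 3 members too low to test were added after their values were seen. The members and lists were chosen with earlier results of these data known. Promoters and coordinates are those of RefSeq's GRCm38.p6. Alternatives were another pseudocount, filter, scaling, array weights, the compared groups alone, title code, replicate block, and leaving out each library or title code b (the last chosen after seeing the data).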

Additional observations from a re-analysis of the deposited data

Results flagged for a closer look

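In AM at 0h, 1 library stood apart from the other 3 for Ccnb2 (gap over range 0.915, the library of code b, lowest at 17.7 TPM) and for Aurka (0.863, a library of code a, lowest at 1.27 TPM). Such gaps arise by chance in about 1 in 20 groups.

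The response to ip LPS differed between the cell types by limma's F test for 23 of the 29 members tested, where 25.1% of all genes were called. The adjusted p was 1.17e-05 for Ccnb2, 6.63e-05 for Cdca8, 0.000182 for Top2a, 0.000267 for Cdc20, 0.000443 for Birc5 and 0.000619 for Cdca3. It was 0.00126 for Prc1, 0.00163 for Ube2c, 0.00257 for Tpx2, 0.00329 for Cdk1, 0.00424 for Ccna2, 0.00552 for Kif20a, 0.00561 for Racgap1, 0.00629 for Plk1 and 0.00636 for Cenpa. It was 0.00779 for Ckap2l, 0.0091 for Aurkb, 0.0104 for Cenpe, 0.0105 for Aurka, 0.0111 for Spc25, 0.0203 for Mki67, 0.0271 for Bub1b and 0.0301 for Nusap1.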

How the results depend on the processing

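Counts of members called are given with the count as reported first. Shares of all genes called under the other settings are not given, here or in the results. A changed count therefore cannot be read as particular to the members. For IM against AM at 0h, 19 became 10 with a filter at 10 TPM, 11 with the replicate block, and 10 to 19 leaving out 1 library. For iMo against AM at 0h, 25 became 13 at 10 TPM and 20 to 24 leaving out 1 library. For iMo against IM at 0h, 5 became 9 with a pseudocount of 0.25, 0 with 5, 2 without a filter, 3 at 10 TPM, 10 rescaled without Rn45s and Lars2, 10 with array weights, 2 with the compared groups alone, and 1 to 4 leaving out 1 library. In AM at 20h, 0 became 1 without code b.

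In IM at 2h, 5 became 2 with a pseudocount of 5, 3 without a filter, 8 with quantile normalization, 3 with array weights, 0 with title code, 0 with the replicate block, 3 with the compared groups alone, 3 without code b, and 1 to 4 leaving out 1 library. In IM at 6h, 2 became 11 with quantile normalization, 5 rescaled, 0 with title code, 1 with the replicate block, 1 without code b, and 0 to 2 leaving out 1 library. In IM at 20h, 15 became 23 with quantile normalization, 0 with title code, 0 with the replicate block, and 3 to 16 leaving out 1 library. From 2h to 20h in IM, 23 became 15 at 10 TPM, 14 with quantile normalization, and 14 to 22 leaving out 1 library.

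In iMo at 2h, 9 became 14 with a pseudocount of 0.25, 1 with 5, 14 rescaled, 0 with title code, 0 with the replicate block, 4 with the compared groups alone, and 4 to 5 leaving out 1 library. In iMo at 6h, 24 became 14 at 10 TPM, 15 with title code, and 8 with the replicate block. In iMo at 20h, 27 became 15 at 10 TPM, 14 with title code, and 7 with the replicate block. From 2h to 20h in iMo, 25 became 15 at 10 TPM and 16 to 19 leaving out 1 library.

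At 20h, IM against AM, 0 became 1 with a pseudocount of 5, 4 with quantile normalization, 5 rescaled, 1 with array weights, 1 with title code, 1 with the replicate block, and 0 to 1 leaving out 1 library. For iMo against AM, 2 became 1 with a pseudocount of 0.25, 1 without a filter, 1 with the replicate block, 1 with the compared groups alone, 1 without code b, and 1 to 2 leaving out 1 library. For iMo against IM, 0 became 1 with a pseudocount of 5, 2 with array weights, and 0 to 1 leaving out 1 library. The difference of responses, 23, became 15 at 10 TPM.

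The filter at 10 TPM tested 17 members. The cause of the other changes was not tested. Of single named values, 189 kept their direction and side of the threshold leaving out 1 library and 47 their direction only. Under the other settings 553 kept both, 89 their direction only, and 1 turned (Cdca8 in IM at 2h, 0.19 with quantile normalization, adjusted p = 0.644 by limma). Pairing by same-labelled titles did not reach the bar of every correlation of deviations over 0.1: over 62 pairs it was -0.21 to 0.618 with a median of 0.0836, and 28 were over 0.1, among them 13 of the 15 pairs of code b. In groups of 2 libraries the deviations mirror each other, so some pairs repeat a value. IM with iMo at 0h, for example, gave 0.308 for both letters, and the 62 are not separate observations. TPM carry no depth, so no counting limit could be set.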
